A study of Mus musculus with 30 samples.

Results

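Small nucleolar RNAs (snoRNAs) were measured in splenic B cells of C57BL/6 mice carrying a B cell-restricted knock-in of Ikzf3-L161R, a missense mutation of the lymphoid transcription factor Aiolos. Every row whose symbol begins with Snord (C/D box) or Snora (H/ACA box) was taken. This gave 114 genes of 26266 named genes in the table of young mice, 76 Snord and 38 Snora, and 95 of 22781 in the table of aged mice, 61 Snord and 34 Snora. All 95 were also among the 114. The RNA libraries fell into 5 groups. The young groups, given as 3 months in the labels and 2 to 3 months in the protocol, were homozygous Ikzf3 fl/fl mice (n = 3) and wild-type mice (n = 3). The aged groups, 15 to 18 months old, were leukaemic cells (CLL, sorted as B220+CD5+, n = 5), non-leukaemic B cells of the same mutant mice (non-CLL, n = 4) and wild-type B cells (n = 3). CLL libraries 1, 2, 4 and 5 and non-CLL libraries 2, 4 and 5 came from Ikzf3 fl/+ mice, and library 6 of each group from an Ikzf3 fl/fl mouse. The labels used here do not name the Cre driver. Nothing in them says that wild-type controls carried Cre, and p-values measure the spread between these libraries only. The 12 chromatin samples were not used here.

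C/D box snoRNAs guide 2'-O-methylation of ribosomal and spliceosomal RNA as particles with fibrillarin, Nop56, Nop58 and Snu13. H/ACA box snoRNAs guide pseudouridylation with dyskerin, Gar1, Nhp2 and Nop10. A few, such as U8 (Snord118), U14 (the Snord14 family), U17 (Snora73) and U22 (Snord22), act in cleavage of the ribosomal RNA precursor. In mammals most are not transcribed on their own: they are trimmed out of introns of host genes, many of which encode ribosomal proteins, translation factors or nucleolar proteins, while others are non-coding transcripts of the Snhg type and Gas5. Here the host is the RefSeq gene (GRCm38.p6) whose span holds the snoRNA, found without regard to strand. A value counts sequenced fragments over the snoRNA's own bases, so mature snoRNA, trimming intermediates and unspliced host RNA cannot be told apart. Poly(A)-based libraries capture the short mature molecules poorly. The young libraries were made with TruSeq RNA Sample Prep Kit v2, and the kit of the aged libraries is not given here. The part of RNA selection in the values was not tested.

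Host promoters are printed because the members are read out through them, and because hosts are known for transcripts that start in a pyrimidine tract, the 5' TOP motif. Each window is 80 bases of RefSeq sequence on GRCm38.p6, 50 before the start and 30 after it, and capitals mark a run of at least 7 bases made only of C and T within 20 bases of the start. The hosts of Snord16a (Rpl4), of Snord32a to Snord35a (Rpl13a), of Snord22 (Snhg1) and of 4 members of Snhg12 held such a run, and the host of Snora75 (Ncl, the nucleolar protein nucleolin) did not, nor did the hosts Eif5, Rps13, Nop56 and Gnl3, whose windows are not printed.
Rpl4, chr9:64173337-64173416, plus strand: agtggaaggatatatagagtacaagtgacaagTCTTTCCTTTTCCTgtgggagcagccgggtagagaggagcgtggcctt
Rpl13a, chr7:45128716-45128795, minus strand: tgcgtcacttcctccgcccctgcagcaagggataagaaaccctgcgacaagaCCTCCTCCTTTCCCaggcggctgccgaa
Snhg1, chr19:8723437-8723516, plus strand: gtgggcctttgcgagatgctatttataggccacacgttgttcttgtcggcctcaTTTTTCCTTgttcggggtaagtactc
Snhg12, chr4:132308628-132308707, plus strand: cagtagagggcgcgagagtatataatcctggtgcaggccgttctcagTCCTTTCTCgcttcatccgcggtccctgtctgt
Ncl, chr1:86359426-86359505, minus strand: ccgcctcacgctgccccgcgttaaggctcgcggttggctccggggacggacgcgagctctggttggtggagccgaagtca
Of 78 hosts, 64 had a window, and 26 of these (40.6%) held a run, against 33.7% of all 27025 genes with a window. It was found in 11 of 17 non-coding hosts, 8 of 16 ribosomal protein hosts, 2 of 6 translation factor hosts and 5 of 25 other protein-coding hosts. A match is a description of these letters and not a mapped start site.

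The aged values were deposited as TPM (transcript abundance scaled for length and library size), and the young values were taken as TPM. Each table was used on its own. For each member, TPM times length was a whole multiple, within 0.01, of 1 step per library, taken here as 1 read. All 101 members above 0 in the young table and 90 in the aged table behaved so at the RefSeq length, and 5 aged members did so at another length. On a 70-base snoRNA 1 read was worth 0.715 to 0.806 TPM in young homozygous libraries and 0.287 to 0.527 TPM in young wild-type libraries. In the aged table it was worth 2.91 to 5.80 TPM in CLL, 3.57 to 36.4 TPM in non-CLL and 1.04 to 1.44 TPM in wild-type libraries. The worth of a read therefore moved with the groups, in the same order as the summed snoRNA level described next, and its part in the results was not tested. Reads on members ran from 9325 to 10660 in young homozygous, 8733 to 12769 in young wild-type, 1681 to 5418 in CLL, 392 to 3939 in non-CLL and 2972 to 6139 in aged wild-type libraries. Non-CLL library 6 had 392 reads, with 50 of 95 members above 0 and a median of 2 reads. A floor of 1 read stands under every value, and counting error is the only error this covers.

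**Figure D1:**
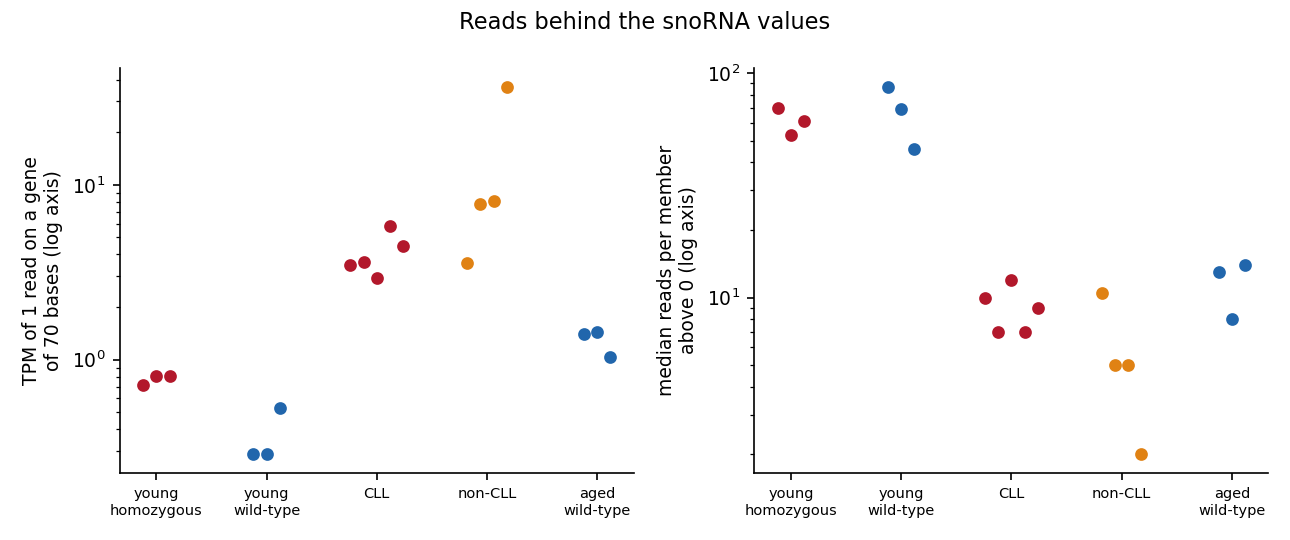
For each of the 18 libraries, by group, the left panel shows the TPM that 1 read adds on a 70-base snoRNA and the right panel the median number of reads per member above 0, both on log axes. Young libraries have medians of 46 to 87 reads and aged libraries of 2 to 14, and non-CLL library 6 is the highest point on the left, at 36.4 TPM per read, and the lowest on the right.

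Libraries also differed in other ways. In the young set, wild-type libraries 1 and 2 held Xist at 80.9 and 63.1 TPM and almost no Ddx3y, while wild-type library 3 held Ddx3y at 54.3 TPM and the homozygous libraries at 107 to 148 TPM. The 9 neutrophil and macrophage markers summed to 183 to 437 TPM in young homozygous libraries and 1453 to 5431 TPM in young wild-type libraries, and the part of these differences in the snoRNA results was not tested. The 7 B cell markers summed to 17370 to 18207 TPM and 16086 to 17732 TPM in the same order, and Ikzf3 itself, which carries the knock-in, was at 381 to 438 TPM and 214 to 276 TPM. A TPM does not show whether the missense base is present. In the aged set, the 3 plasmacytoid dendritic cell markers summed to 10.3 to 48.8 TPM in CLL, 203 to 1037 TPM in non-CLL and 4.68 to 183 TPM in wild-type libraries. The median of the olfactory receptor genes, which B cells do not use, was 0 in every young library, 1.08 to 9.66 TPM in CLL, 7.16 to 9.24 TPM in non-CLL and 0 to 0.745 TPM in aged wild-type libraries. It served as the background level of a library. In bulk RNA, fewer cells of a type and less RNA per cell cannot be told apart.

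In young homozygous B cells the snoRNA values stood higher as a group. Summed over members they made up 5984, 5841 and 6505 TPM in homozygous libraries, against 2977, 2789 and 3720 TPM in wild-type libraries, and the groups did not overlap. The means were 6110 ± 350 TPM and 3162 ± 492 TPM (SD, n = 3 each). C/D members summed to 4179 ± 221 TPM in the mutant, against 2384 ± 426 TPM in wild type, and H/ACA members to 1931 ± 129 TPM against 778 ± 69.5 TPM. In the aged table the sums were 9540 ± 2152 TPM in CLL (SD, n = 5), 9816 ± 1117 TPM in non-CLL (SD, n = 4) and 4147 ± 2005 TPM in wild-type cells (SD, n = 3). Aged wild-type library 2, at 6456 TPM, lay apart from the other two, at 3149 and 2837 TPM, and it also held the dendritic marker Siglech at 126 TPM, against 0 and 1.89 TPM.

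**Figure D2:**
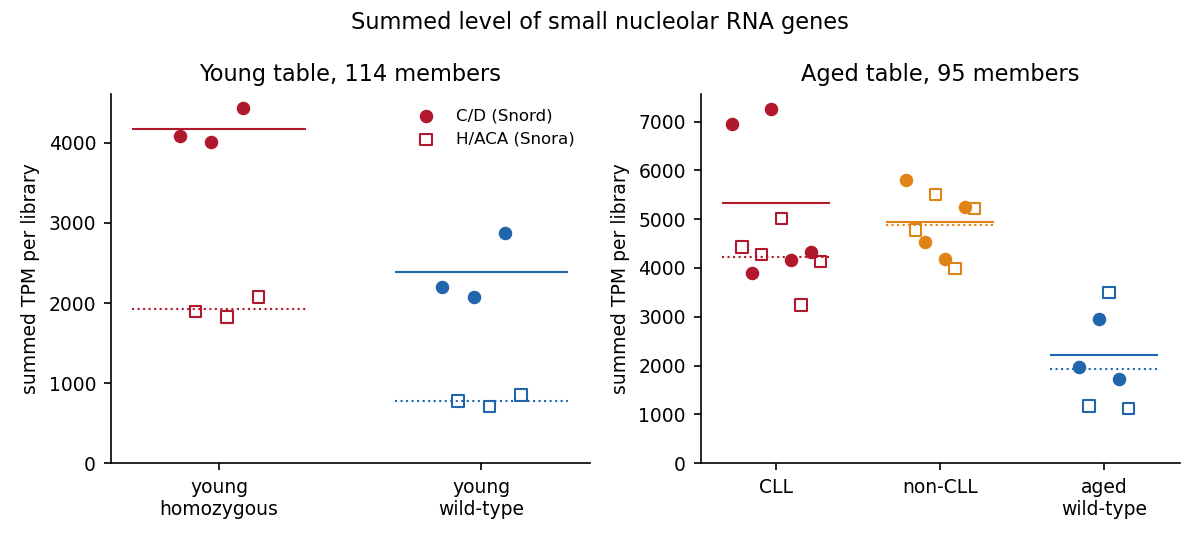
Summed TPM of the C/D members (filled circles, solid line at the mean) and of the H/ACA members (open squares, dotted line at the mean) is shown for every library, with the 5 groups along the horizontal axis. The 3 young homozygous libraries lie above the 3 young wild-type libraries in both classes, and aged wild-type library 2 lies above the other aged wild-type libraries.

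Of the 114 members in the young table, 96 reached 1 TPM in at least 3 libraries, the size of the smaller group, and were tested with limma on log2(TPM + 1), with Benjamini-Hochberg adjustment over all 12219 genes tested and a threshold of 0.05. There were 69 members higher in homozygous cells and 0 lower (74 and 1 at an unadjusted p under 0.05), so 71.9% were higher, beside a background of 38.4% of all tested genes higher and 12.6% lower. The groups did not overlap for 72 members, 71 of them higher, beside 61.4% of all genes in either direction. The median log2 change was 0.99 over members and 0.18 over all genes. Under TMM scaling, which moved the median of all genes to -0.01, 58 members were higher and 2 lower, beside backgrounds of 24.2% and 22.6%. Without wild-type libraries 1 and 2, the pair that held Xist, 54 of 98 were higher and 4 lower, beside 16.6% and 5.83%, and 52 of the 69 calls were kept; the lone wild-type library is then assumed to vary like the homozygous ones. With a minimum of 20 TPM 49 of 61 were higher, beside 48.1%. By class, 26 of 32 H/ACA members and 43 of 64 C/D members were higher, with medians of 1.01 and 0.97, and the difference between them was not tested.

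Of the other 18 members, 13 were at 0 in all 6 young libraries, and 5 (Snora47, Snord61, Snord67, Snord90, Snord92) had reads but did not reach the minimum level. Those at 0 included Snora73b (U17), Snord64 and the Snord116 genes of the imprinted Snhg14 cluster, which is expressed mainly in brain. A count of 3 reads would have given 0.294 to 0.826 TPM for Snora73b and 1.31 to 3.68 TPM for Snord64, so levels below that could have gone unseen. Snord115 and the Snord112 to Snord114 genes are not among the members.

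Members in ribosomal protein genes moved apart from their hosts. Of 32 tested, 26 were higher in homozygous cells and 0 lower, beside 71.9% of all tested members higher. Of their 23 hosts, 16 were lower and 0 higher, with a median host log2 change of -0.34. Among all genes 38.4% were higher and 12.6% lower. Snora21, which lies in Rpl23, was at 51.2, 49.4 and 38.8 TPM in homozygous libraries, against 9.47, 5.02 and 11.5 TPM in wild-type libraries. All homozygous values lay above all wild-type values. Its log2 change was 2.35 (SE 0.29, limma adjusted p = 0.00153), and that of Rpl23, a large-subunit protein, was -0.34 (SE 0.10, limma adjusted p = 0.0230). Snord58b, in Rpl17, was at 115, 75.9 and 100.5 TPM, against 43.4, 37.6 and 47.6 TPM in wild-type libraries, again with no overlap. It rose by 1.15 on the log2 scale (SE 0.16, limma adjusted p = 0.00112) while Rpl17 changed by -0.70 (SE 0.11, limma adjusted p = 0.00117).

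Snord16a and Snord14a lay in ribosomal protein genes that did not pass the test. Snord16a, in Rpl4, was at 109, 121 and 113 TPM in homozygous libraries and 30.9, 30.0 and 30.0 TPM in wild-type libraries. Spread within each group was small next to the gap, and the log2 change was 1.88 (SE 0.07, limma adjusted p = 2.15e-06), the smallest adjusted p among the members. Rpl4 was at 2653 to 2766 TPM and 2751 to 2973 TPM (log2 change -0.08, SE 0.08, limma adjusted p = 0.423). Snord14a, a U14 copy in Rps13, was at 242, 269 and 291 TPM, against 59.5, 68.6 and 56.8 TPM in wild-type libraries, and rose by 2.10 (SE 0.10, limma adjusted p = 4.57e-06). Rps13, a small-subunit protein, changed by -0.18 (SE 0.10, limma adjusted p = 0.148).

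The 4 members of Rpl13a can be compared within 1 host. Snord32a, Snord33, Snord34 and Snord35a, the U32 to U35 guides, rose by 0.91, 0.58, 0.80 and 0.63 on the log2 scale, and all 4 passed the test, while Rpl13a changed by -0.44 (SE 0.10, limma adjusted p = 0.00752). Snord34 was at 56.1, 48.7 and 51.3 TPM in homozygous libraries and 31.2, 29.2 and 28.0 TPM in wild-type libraries. Although they share 1 transcript, their mean levels over the 6 libraries ran from 6.81 to 51.2 TPM, a 7.52-fold range. Members of 1 host are not independent of each other.

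**Figure D3:**
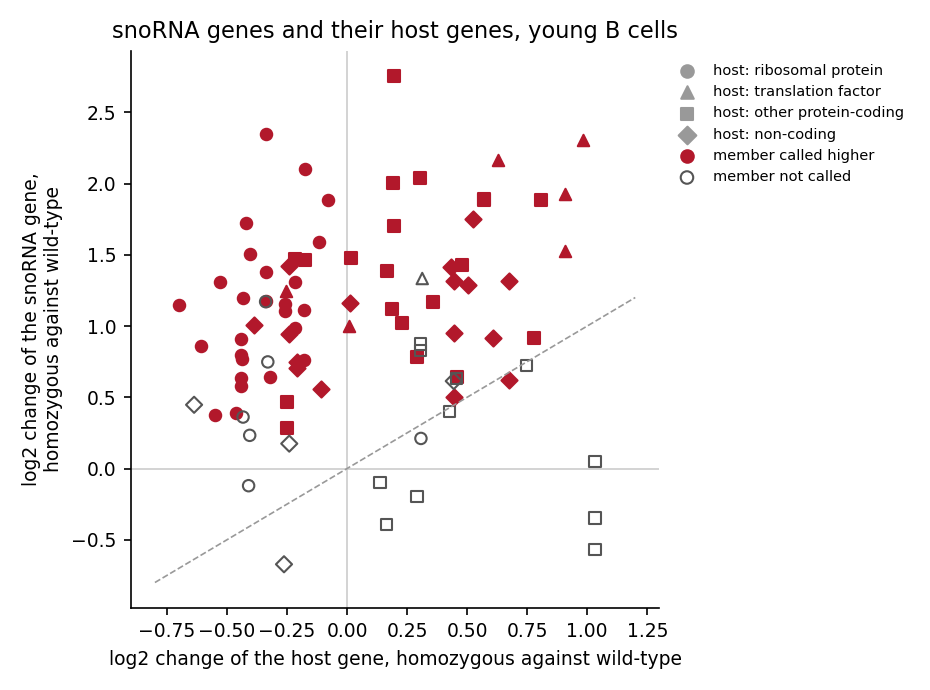
The log2 change of each member in young homozygous against young wild-type cells (vertical) is plotted against that of its host gene (horizontal), with filled red points for members called higher and a dashed line where both changes are equal. Most points lie above the line, 79 of 90, and most members of ribosomal protein hosts lie to the left of 0.

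Translation factor genes held 3 of the 5 most abundant young members, and most of these hosts rose as well. Of 7 members, 6 were higher, and 4 of the 6 hosts were higher and 1 lower, beside 38.4% of all genes higher and 12.6% lower. Snora28, in Eif5, a factor of start codon selection, was at 292, 268 and 293 TPM in homozygous libraries, against 48.9, 52.0 and 71.7 TPM in wild-type libraries. The groups lay far apart, with a log2 change of 2.30 (SE 0.14, limma adjusted p = 3.11e-05) beside 0.98 (SE 0.07, limma adjusted p = 7.47e-05) for Eif5. Eif4a2, an RNA helicase of translation initiation, rose by 0.91 (SE 0.08), and its 2 members rose more. Snord2 was at 351, 360.1 and 439 TPM against 117, 118 and 166 TPM (log2 change 1.52, SE 0.15, limma adjusted p = 0.000357). Snora81 was at 229.6, 305 and 348 TPM against 72.9, 75.1 and 78.5 TPM (1.93, SE 0.14, limma adjusted p = 0.000104). Snora19, in Eif3a, was at 8.94, 6.05 and 20.1 TPM against 0.361, 1.44 and 3.95 TPM, on a mean of 7.83 reads (2.17, SE 0.64, limma adjusted p = 0.0395).

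Non-coding hosts carried 23 tested members, of which 17 were higher. This is 73.9%, near the 71.9% of all tested members, beside 38.4% of all genes. Snord22, the U22 RNA that acts in 18S maturation, lies in Snhg1 and was at 123, 124 and 125 TPM in homozygous libraries, against 40.1, 29.5 and 39.8 TPM in wild-type libraries. No wild-type library came near the homozygous ones (log2 change 1.75, SE 0.12, limma adjusted p = 3.55e-05), and Snhg1 rose by 0.52 (SE 0.09, limma adjusted p = 0.00198). Snhg12 rose by 0.44, and among its members Snora16a rose by 1.31, Snora44 by 0.95 and Snord99 by 0.50, while Snora61 at 0.61 (limma adjusted p = 0.240) did not pass. Snord12 rose by 1.00 although its host Zfas1 was lower, by 0.39. Snora73a (U17), in Snhg3, was at 21.5, 18.2 and 15.4 TPM against 11.6, 6.17 and 10.6 TPM (log2 change 0.92, SE 0.23, limma adjusted p = 0.0144).

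Other protein-coding hosts carried 31 tested members, of which 20 were higher. This is 64.5%, beside 71.9% of all tested members and 38.4% of all genes. Snora75, in Ncl, had the greatest change of the tested members: 88.5, 91.0 and 91.4 TPM in homozygous libraries, against 17.9, 14.7 and 7.32 TPM in wild-type libraries. Its log2 change was 2.75 (SE 0.31, limma adjusted p = 0.00161), and that of Ncl was 0.20 (SE 0.07, limma adjusted p = 0.0514). Against wild-type library 3 alone, the lowest wild-type value at 7.32 TPM, the log2 change of Snora75 was 3.46. Gnl3, which encodes the nucleolar GTPase nucleostemin, rose by 0.57, and its members Snord19 and Snord69 rose by 1.89 and 1.88. Snora20, in the chaperonin gene Tcp1, was at 23.8, 18.5 and 29.6 TPM against 3.64, 8.89 and 3.63 TPM (2.04, SE 0.35, limma adjusted p = 0.00514). Snord96a, in Rack1, had the highest mean of all young members and a small change: 360.3, 350.3 and 402 TPM in homozygous libraries, against 315, 281 and 319 TPM (0.28, SE 0.09, limma adjusted p = 0.0268).

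Some members did not follow the group. The 3 U14 copies in Hspa8, an Hsp70-family chaperone gene whose own log2 change was 1.03, did not pass the test, with changes of 0.05 for Snord14c, -0.35 for Snord14d and -0.57 for Snord14e. Wild-type library 3 set them apart: Snord14e was at 84.2, 76.3 and 95.5 TPM in homozygous libraries, against 66.2, 100.9 and 302 TPM in wild-type libraries. Compared with library 3 alone, Snord14c (-1.21), Snord14d (-1.38) and Snord14e (-1.82) were lower, as was Snora69 of Rpl39 (-0.88). Snord118 (U8), for which no host span was found, was at 1.46, 0.824 and 1.24 TPM, against 1.62, 2.20 and 2.15 TPM in wild-type libraries. Its change of -0.47 (SE 0.18, limma adjusted p = 0.0561) did not pass, on a mean of 7.17 reads. With TMM scaling it was lower (-0.59, limma adjusted p = 0.0273). The 3 tested members with no host span, Snord118, Snord13 and Snord89, held none of the 69 calls.

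**Figure D4:**
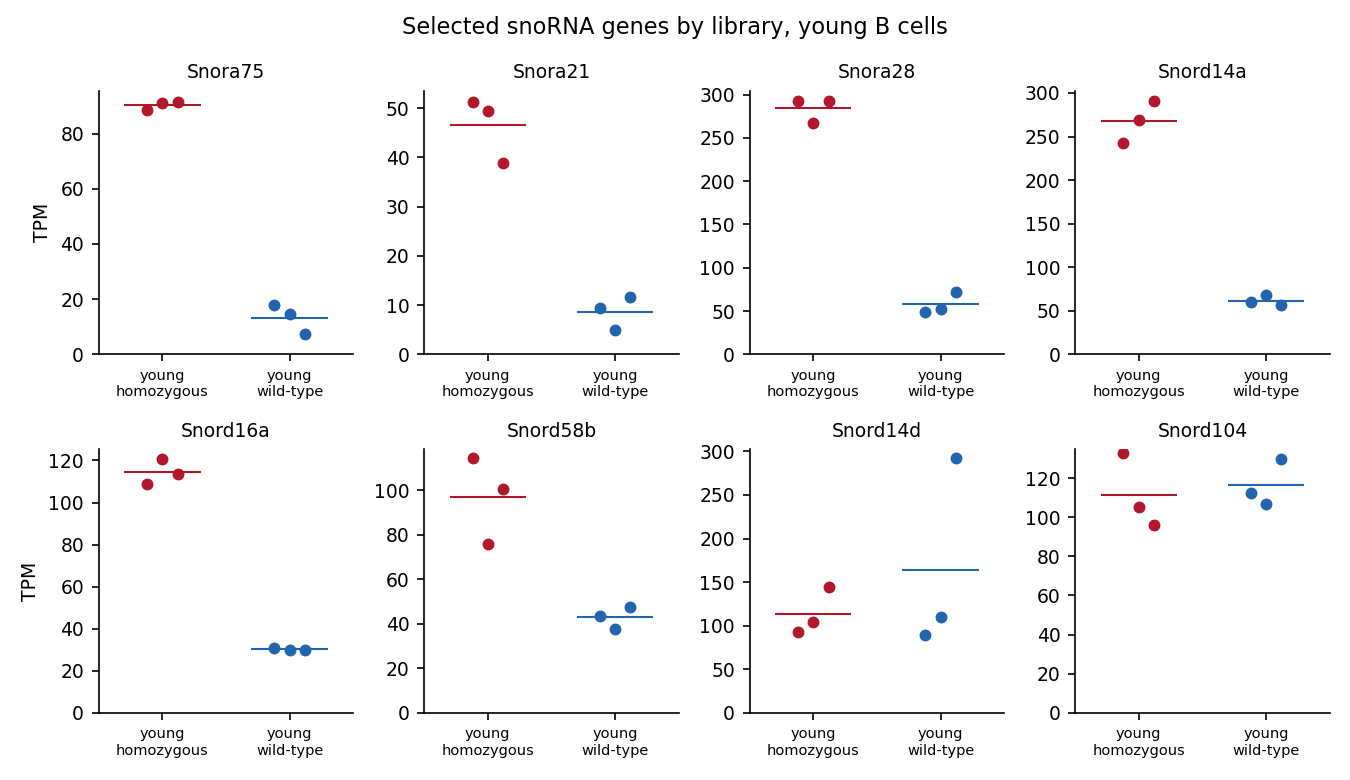
TPM of 8 members in each young library is shown, homozygous left and wild-type right, 1 panel per member with its own linear axis and a line at the group mean. In Snora75, Snora21, Snora28, Snord14a, Snord16a and Snord58b the groups do not overlap, in Snord14d wild-type library 3 stands alone at 293 TPM, and Snord104 overlaps at 95.8 to 133 TPM in homozygous and 107 to 130 TPM in wild-type libraries.

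Across members, the change of the snoRNA and that of its host went together only weakly. Over 90 members with a tested host, which share 64 hosts, Pearson's r was 0.09 and Spearman's rho 0.17, and 79 of the 90 had a higher log2 change than their host, by a median of 1.02. Of tested members whose host was lower, 23 of 29 (79.3%) were higher in homozygous cells. With the host higher it was 22 of 33 (66.7%), and with the host not called 23 of 28 (82.1%). These stand beside 71.9% of all tested members, and the host was untested for 1 further member called higher. By contrast, mean TPM of member and host had a Spearman's rho of 0.56 in homozygous and 0.54 in wild-type cells over 95 members. Members with a mean of at least 10 reads numbered 86, of which 65 were higher.

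Of 23 tested genes of core and assembly proteins of the snoRNA particles, 5 were higher in young homozygous cells and 3 lower, beside the backgrounds of 38.4% and 12.6% of all genes. Nop56 (0.31) and Gar1 (0.25) are core proteins, Rpap3 (0.31) and Nolc1 (0.47) serve assembly and transport, and Tgs1 (0.59) caps small RNAs. Those lower were Snu13 (-0.26), Nop10 (-0.59) and Nhp2 (-0.49), of which Nop10 and Nhp2 are H/ACA core proteins, while fibrillarin (Fbl, -0.12, limma adjusted p = 0.230) and dyskerin (Dkc1, 0.14, limma adjusted p = 0.175) did not pass. Among 17 tested genes on a list of non-coding snoRNA hosts 8 were higher and 2 lower, which is near the same backgrounds. Among 22 tested genes of other small non-coding RNAs 6 were higher, led by the Cajal body RNA Scarna3a (2.49), and 2 lower, Rpph1 (-2.02) and Rmrp (-1.75), the RNAs of RNase P and RNase MRP, against the same backgrounds of 38.4% and 12.6%.

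In aged mice, CLL cells were set against wild-type B cells. Of 90 tested members 26 were higher in CLL and 0 lower, that is 28.9% beside a background of 2.94% higher and 0.604% lower among 21202 genes (limma; 51 and 0 members at an unadjusted p under 0.05). The groups did not overlap for 27 members, beside 31.5% of all genes. The median log2 change was 1.38 over members and 0.93 over all genes. By class, 19 of 59 C/D and 7 of 31 H/ACA members were higher. With the olfactory receptor median of each library subtracted, 8 of 87 were higher, beside 0.368% of all genes and a median of all genes of -0.07, and with a minimum of 20 TPM 12 of 52 were, beside 1.38%; under these settings 0 members were lower, beside 0.406% and 0.76%. Under TMM scaling 22 of 90 were higher and 0 lower, which is near the background of that scaling, 27.8% higher and 0.957% lower. Leaving out single libraries gave 23 to 49 calls: 49 without CLL library 2, 45 without CLL library 4 and 47 without wild-type library 2. The share of all genes called in these runs is not given here, so a change particular to the members is not shown. CLL library 2 held neutrophil and macrophage markers at a sum of 1068 TPM, against 21.9 to 79.9 TPM in the other CLL libraries. Wild-type library 2 held T cell markers at a sum of 619 TPM, against 2.51 and 16.6 TPM, and Ddx3y at 17.4 TPM, against 0.0420 and 0 TPM, in the other wild-type libraries. The part of these markers in the calls was not tested. Other settings moved the count of members as well: it was 8 with neither trend nor robust fitting and 40 with a pseudocount of 0.25. Shares of all genes are not given for these settings either. Members with a mean of at least 10 reads numbered 40, of which 11 were higher.

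The 8 members called both with the median subtracted and with the 20 TPM minimum were Snora20, Snora28, Snord110, Snord19, Snord42a, Snord43, Snord57 and Snord65. No wild-type library reached 20 TPM for Snora20, Snord110, Snord19, Snord42a or Snord43. These met that minimum through CLL libraries alone, so passing it is no separate support for them. Nop56, a C/D core protein gene, hosts Snord57 and Snord110. Snord57 was at 139, 105, 197, 168 and 149.7 TPM in CLL libraries and 18.6, 25.6 and 17.4 TPM in wild-type libraries, far apart (log2 change 2.81, SE 0.33, limma adjusted p = 4.73e-08). Snord110 was at 41.1, 43.0, 55.2, 41.3 and 42.6 TPM, on 6 to 16 reads each, against 0, 1.71 and 6.18 TPM, on 0, 1 and 5 reads (4.08, SE 0.48, limma adjusted p = 5e-08). Nop56 itself rose by 1.17 (SE 0.32, limma adjusted p = 0.0308). The fitted changes of members with few wild-type reads depend on the added 1 TPM.

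Snord43, which lies in Rpl3, was at 30.3, 63.4, 59.4, 42.3 and 65.5 TPM in CLL libraries and 2.03, 4.20 and 4.56 TPM in wild-type libraries, with no overlap (3.53, SE 0.42, limma adjusted p = 5e-08). Its host changed by 0.28 (limma adjusted p = 0.536). Snora28 was at 614, 601, 426, 473 and 278 TPM in CLL libraries, against 115, 193 and 132 TPM in wild-type libraries, on at least 107 reads in each CLL library. Every CLL value lay above every wild-type value (1.68, SE 0.31, limma adjusted p = 0.000626), while its host Eif5 changed by -0.32 (limma adjusted p = 0.431). Snord65, in the non-coding gene 2410006H16Rik, rose by 2.25 (SE 0.39, limma adjusted p = 0.000221), as did the host, by 1.82 (limma adjusted p = 0.00427). Snord19 was at 103, 28.2, 45.3, 22.6 and 110.6 TPM in CLL libraries, against 5.41, 7.48 and 1.35 TPM (3.36, SE 0.54, limma adjusted p = 0.00131). Snord42a, in Rpl23a, was at 43.2, 28.2, 18.1, 54.1 and 34.9 TPM against 0, 11.2 and 0 TPM. Snora20 lay at 16.6 to 25.8 TPM in CLL and 0 to 3.31 TPM in wild-type libraries, on 3 to 7 and 0 to 2 reads.

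Snord111, in the splicing factor gene Sf3b3, also passed (limma adjusted p = 0.00147), but it had 1 to 3 reads in each CLL library and 0 in all 3 wild-type libraries, so no fold is given. The most abundant aged member, Snora31 of Tpt1, was at 2315, 2772, 2779, 1504 and 2539.8 TPM in CLL libraries, against 277, 2390.5 and 318 TPM in wild-type libraries. Wild-type library 2 reached the CLL range, and the change of 1.96 (SE 0.74, limma adjusted p = 0.0873) did not pass. Snord73a (1.25, limma adjusted p = 0.0527) and Snora70 (0.39, limma adjusted p = 0.341) did not pass either, and Snord22 did (1.46, SE 0.32, limma adjusted p = 0.00498).

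**Figure D5:**
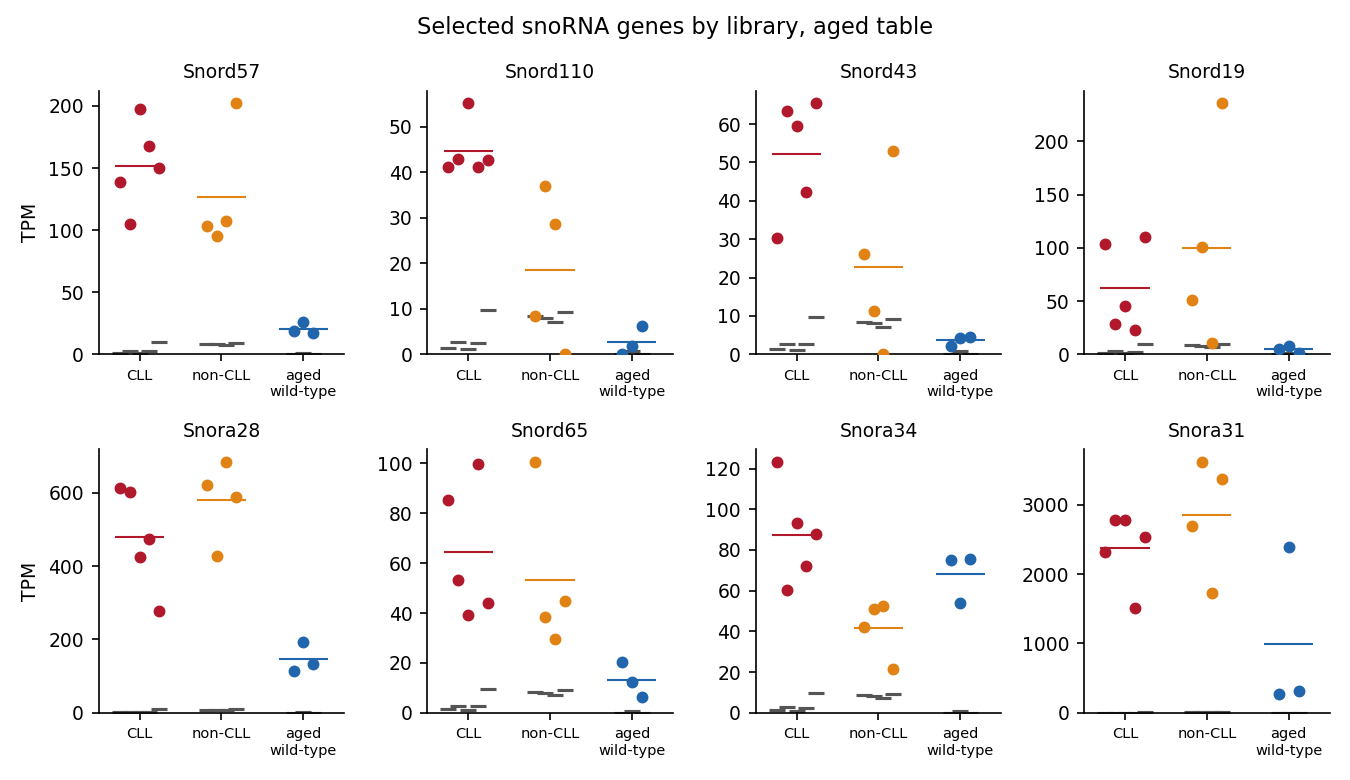
TPM of 8 members in each aged library is shown in the order CLL, non-CLL and wild-type, 1 panel per member with its own linear axis, with grey dashes at the median of the olfactory receptor genes in that library. CLL libraries of Snord57, Snord110, Snord43 and Snora28 lie above all wild-type libraries, and in Snora31 wild-type library 2 lies at 2390.5 TPM, within the CLL range.

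The young and aged comparisons use different libraries and different tables. Of 84 members tested in both, 66 were higher in young homozygous cells and 26 in CLL, and 22 were higher in both. These are 33.3% of the young calls and 84.6% of the CLL calls, beside 78.6% of the 84 called in the young set. Next to Snora20, Snora28, Snord19, Snord22, Snord42a, Snord43 and Snord65, the 22 included Snora75 (2.75 in the young, 1.21 in the CLL comparison), Snora81 (1.93 and 1.32), Snord17 (1.47 and 1.94), Snord47 of Gas5 (1.29 and 1.14) and Snord34 (0.80 and 1.88). Snord57 (0.87, limma adjusted p = 0.0822) and Snord110 (0.83, limma adjusted p = 0.0810) did not pass in the young comparison. The particle proteins higher in CLL than in aged wild-type cells were Nop56 (1.17) and Nop10 (1.70), 2 of 23 tested, and 7 of 72 hosts were higher and 0 lower, beside 2.94% of all genes higher and 0.604% lower.

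CLL cells were next set against non-CLL B cells of the same mice. Here 1 of 92 members was higher and 0 lower (limma; 6 and 5 at an unadjusted p under 0.05), that is 1.09% beside backgrounds of 0.744% higher and 5.02% lower, with a median log2 change of 0.28 over members and -0.77 over all genes. The groups did not overlap for 3 members, Snora34 and Snord110 higher and Snord15a lower, beside 8.68%. Other settings gave 2 higher with TMM (beside 1.3%), 2 with the olfactory receptor median subtracted (beside 1.27%) and 1 with a minimum of 20 TPM (beside 1.34%). They gave 0 lower, beside 0.453%, 1.27% and 1.9%. With the median subtracted and with the 20 TPM minimum Snora34 was not called and Snord42a was. The member called without these changes was Snora34, which lies in Kansl2, a subunit gene of a histone acetyltransferase complex. It was at 123, 60.1, 93.2, 72.2 and 87.9 TPM in CLL libraries and 42.3, 50.9, 52.6 and 21.6 TPM in non-CLL libraries, and the aged wild-type libraries were at 75.2, 53.9 and 75.4 TPM. CLL and non-CLL libraries did not overlap, but non-CLL library 6 rested on 1 read. The log2 change was 1.08 (SE 0.31, limma adjusted p = 0.0415), and with the mouse as a block it was 0.95 (SE 0.29, limma adjusted p = 0.0673). The call was also lost without CLL library 1 (adjusted p = 0.0902 with limma), CLL 4 (0.0895), CLL 5 (0.0532), non-CLL 2 (0.0747), non-CLL 4 (0.0613) or non-CLL 6 (0.124), for Snora34 in each case. With the block, Snora30 (-1.65, limma adjusted p = 0.0480) and Snora74a (-1.43, limma adjusted p = 0.0369) were lower in CLL. Snora30 had 1 to 8 reads in CLL and 2 to 4 in non-CLL libraries, and Snora74a 1 to 27 and 4 to 22. The share of all genes called with the block is not given here, so a change particular to these members is not shown.

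Members that separated CLL from aged wild-type cells gave no call here before the settings were changed. Snora28 was at 621, 429, 685 and 589.9 TPM in non-CLL libraries, which overlaps CLL (log2 change -0.31, limma adjusted p = 0.379). Snord57 was at 103, 95.3, 107 and 202 TPM in non-CLL libraries (0.29, limma adjusted p = 0.435). Snord110 was at 8.46, 37.0, 28.7 and 0 TPM, below every CLL library, on 0 to 4 reads, and its change of 2.16 (SE 1.02, limma adjusted p = 0.157) did not pass. Snord42a was at 27.7, 0, 0 and 0 TPM (3.90, SE 1.01, limma adjusted p = 0.0528). Nop58 (0.88), Nop10 (1.27) and Nhp2 (0.99) were the particle proteins higher in CLL than in non-CLL cells, 3 of 23, beside 0.744% of all genes higher and 5.02% lower.

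Between non-CLL B cells and aged wild-type B cells, 30 of 83 members were higher and 0 lower (limma; 34 and 1 at an unadjusted p under 0.05). This is 36.1%, below the background of 55.8% of all 22150 genes (1.48% lower), and the median log2 change was 1.19 over members and 1.65 over all genes. The groups did not overlap for 23 members, beside 56% of all genes. Under TMM scaling 9 members were higher and 3 lower (Snora33, Snora34 and Snord53), beside 43.9% and 15.4%. With the olfactory receptor median subtracted 3 of 82 were higher, beside 0.231%, and with a minimum of 20 TPM 6 of 45, beside 0.942%; 0 were lower, beside 0.0894% and 0.208%. The 3 called after subtraction were Snora28 (1.99, SE 0.26, limma adjusted p = 6.82e-05), Snord22 and Snord57 (2.52, SE 0.31, limma adjusted p = 5.78e-05), with values given here before subtraction. Snord22 was at 406, 325, 398 and 405 TPM in non-CLL libraries, against 116, 113 and 75.2 TPM in wild-type libraries, with no overlap (1.93, SE 0.23, limma adjusted p = 5.47e-05). Its host Snhg1 rose by 1.43 (SE 0.25).

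Some non-CLL calls rested on single reads. Snord64, of the imprinted Snhg14 cluster, was at 10.9, 11.9, 73.6 and 55.4 TPM in non-CLL libraries, on 1 to 6 reads, against 0, 2.19 and 0 TPM in wild-type libraries, and it had the greatest called change (4.26, SE 0.75, limma adjusted p = 0.000626). Snora35, which lies in the serotonin receptor gene Htr2c, was at 18.9, 13.8, 19.0 and 0 TPM against 0 in all 3 wild-type libraries. Htr2c itself stood at 7.24 to 9.66 TPM in non-CLL libraries, near the olfactory receptor medians of 7.16 to 9.24 TPM. The natural killer cell markers summed to 96.9 to 614 TPM in non-CLL and 1.97 to 19.2 TPM in wild-type libraries. The part of these levels in the counts was not tested.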

How the data were processed

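RNA was extracted with RNeasy, and young libraries used TruSeq RNA Sample Prep Kit v2, per the labels' protocols. Of the tools in the submitters' processing notes only STAR, at version 2.4.0.1, is an RNA aligner, and no role is stated there. The values used are TPM as deposited by the authors, 1 table for young and 1 for aged mice. How multi-mapped or overlapping reads were treated is not given in the sources used here. Rows with date-like names (26 young, 25 aged) and 887 unnamed young rows, holding 4.44% to 9.36% of TPM, were left out.

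Differences were fitted with limma 3.58.1 (R 4.3.3; trend and robust) on log2(TPM + 1), over named genes that reached 1 TPM in a number of libraries no smaller than the lesser group size. Only the 2 groups compared entered a fit, and p-values were adjusted over all genes tested. A member can pass this minimum, or that of 20 TPM, through the higher group alone, so the tested members are not all members. Fold changes on this scale understate low genes. Tables were read with Python 3.11.15 and pandas 2.3.3 and drawn with matplotlib 3.10.9. The fit was run on simulated data with normal spread on the log2 scale and changes planted only in genes with a mean above 20 TPM. That setting does not cover members of few reads. Named members were the 5 most abundant per table, up to 6 called with the largest change per comparison and direction without overlap, those called in both the young and the CLL comparison, up to 4 sharing a host with these, and U8, U14, U17 and the imprinted clusters. Members and lists were chosen with earlier results of these data known. Members printed outside this rule were chosen after their values were seen.

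Non-CLL and CLL libraries with 1 number come from 1 mouse, per the design text. Their deviations from the group means correlated at -0.04, 0.03, 0.08 and 0.13 over genes for numbers 2, 4, 5 and 6. CLL and non-CLL libraries with different numbers ranged from -0.21 to 0.12.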

Additional observations from a re-analysis of the deposited data

Results flagged for a closer look

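Of 34 sets of values checked, a named member in 1 aged group each, 5 held a library that stood apart from the others of its group. By the 95% critical values used, chance alone marks about 1 set in 20, a nominal rate that assumes normal values and was not tested on values of few reads. Snora30 was highest in library 6 of both groups of the mutant mice: 23.5 TPM (8 reads) in CLL library 6 and 95.3 TPM (4 reads) in non-CLL library 6, both from an Ikzf3 fl/fl mouse. Snord110 was highest in CLL library 4, at 55.2 TPM (16 reads). Snord22 was lowest in non-CLL library 4, at 325 TPM (75 reads). Snord42a was highest in non-CLL library 2, at 27.7 TPM (5 reads), with the other non-CLL libraries at 0. In non-CLL library 6 1 read on 70 bases is worth 36.4 TPM.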

How the results depend on the processing

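In the young comparison the count of members higher stayed between 49 and 73 under every alternative run, beside 69. The count lower, 0, was 2 with TMM, 1 with neither trend nor robust fitting and 4 without wild-type libraries 1 and 2, where Snord14c turned to -1.21. Leaving out single young libraries gave 61 to 73 higher. For CLL against aged wild-type, 26 higher became 12 with a minimum of 20 TPM, 8 with background subtracted, 8 with neither trend nor robust fitting, 40 with a pseudocount of 0.25, 0 with the replicate block and 11 with at least 10 reads, and leaving out single libraries gave 23 to 49. For CLL against non-CLL, 1 higher became 2 with TMM, 2 with background subtracted, 2 with a pseudocount of 5, 0 with neither trend nor robust fitting, 0 with a pseudocount of 0.25 and 0 with the replicate block, which gave 2 lower. Leaving out single libraries gave 0 to 4 higher and 0 to 4 lower. For non-CLL against aged wild-type, 30 higher became 9 with TMM (3 lower), 6 with a minimum of 20 TPM, 3 with background subtracted and 13 with at least 10 reads. Leaving out single libraries gave 20 to 40 higher and 0 to 2 lower, the 2 without non-CLL library 2. There, TMM turned Snora70 to -0.29 and Snora75 to -0.18. The causes were not tested, and for most of these settings the share of all genes called is not given.

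Same numbers in the young groups mark no stated pair, and deviations of same-numbered libraries correlated at -0.10, 0.24 and 0.32. Young libraries with different numbers ranged from -0.33 to 0.21. With the numbers as a replicate block 72 members were higher, 67 of the 69 among them. CLL and aged wild-type share only numbers 1 and 2, from different mice. The minimum of 10 reads was chosen after seeing the data. In the aged table the median member above 0 had 2 to 14 reads per library, and the part of depth in the calls was not tested.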
